A study of Mus musculus with 32 samples.

Results

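The regions described here are stretches of the mouse genome that carried H3K27me3 in growing oocytes of wild-type (WT) mice at postnatal day 7 (P7) and in no WT stage sampled before. They are the autosomal regions of the WT P7 list that were at least 5000 bp wide and shared not 1 base with any H3K27me3 region of WT oocytes shortly before birth (E18.5), at postnatal day 1 (P1) or day 6 (P6). There were 6673 of them, out of 34954 autosomal regions of that width and 61088 regions in the whole WT P7 list. They are called late regions below, and the other 28281, each of which overlapped an earlier WT H3K27me3 region, are called early regions. The 16 lists of the series held 1035144 regions.

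The study profiled histone marks by CUT&Tag, in which an antibody brings a transposase to a mark so that the DNA around it is cut out and sequenced, in 32 samples of oocytes taken from ovaries, 2 samples to a group and 1 deposited region list to a group. Growing P7 oocytes came from PRC1cKO, PRC1ctrl and WT mice, and non-growing P6 oocytes from PRC1cKO, PRC2cKO, PRC1ctrl, PRC2ctrl and WT mice, while E18.5 and P1 oocytes were WT only. The labelled genotype was Ring1-/-; Ring1F/-; Ddx4-Cre for PRC1cKO and Ring1-/-; Rnf2F/+; Ddx4-Cre for PRC1ctrl, so both PRC1 groups lacked Ring1 and carried the Cre, and the floxed gene of PRC1cKO was not settled because its label names Ring1 where the control names Rnf2. It was EedF/-; Ddx4-Cre for PRC2cKO and EedF/+; Ddx4-Cre for PRC2ctrl. Ddx4-Cre is a recombinase of the germ line, and the labels do not say how many mice were pooled. No list measured RNA or H2AK119ub in PRC1cKO, so neither the loss of PRC1 activity nor the identity of the cells could be checked from markers of expression.

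H3K27me3 is the trimethyl mark that Polycomb repressive complex 2 (PRC2) places on histone H3 and is typical of silent chromatin. H2AK119ub is the ubiquitin mark that Polycomb repressive complex 1 (PRC1) places on histone H2A through its catalytic subunits RING1 and RNF2, and accessory subunits of PRC2 can bind it. Mouse oocytes rest as small non-growing cells in primordial follicles and gain broad H3K27me3 domains far from promoters as they grow, and some of these domains pass to the embryo and silence the maternal copy of a set of genes there.

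Among the late regions, the PRC1cKO P7 list held H3K27me3 in 2318 (34.7%, against 77.3% of all 34954 regions) and the PRC1ctrl P7 list in 5308 (79.5%, against 89.7% of all). Of the early regions, 87.4% were marked in PRC1cKO and 92.1% in PRC1ctrl. WT H2AK119ub at P6, the stage before, overlapped 5280 late regions (79.1%, against 87.4% of all regions), but 14.9% of late regions with the lists trimmed to equal covered length. The 4 widest late regions lay in Iqsec1, Srgap3 and Xylt1 and 105.9 kb from Klf14. Of the genes that maternal H3K27me3 imprints, 13 held late regions. In 7 of the 13, among them Etv6, Smoc1, Sh3gl3 and Slc38a1, these had no base of H3K27me3 in PRC1cKO and had the mark in PRC1ctrl. The others kept some in PRC1cKO, and Slc38a4 and Myoz2 were alike in both groups. Of all late regions, 48.4% were marked in PRC1ctrl and not in PRC1cKO. There was no replicate list, so no test was possible, and the intervals below are exact Clopper-Pearson 95% intervals that cover counting error only. Neighbouring regions are not independent, so the intervals are narrower than the true error.

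Sequences of the late regions themselves were not used here, but 5 promoters that lay wholly inside late regions show the range of CpG content at which the mark arrived. They were chosen from the genes named below, and each spans 250 bases before to 50 bases after the start of the gene in RefSeq (GRCm38.p6), written 5′ to 3′ on the strand of the gene, with each CG dinucleotide in capitals. Phf19 encodes a Polycomb-like subunit of PRC2, Dmrtc2 a DM-domain protein needed for male meiosis, Jade1 a scaffold of a histone acetyltransferase complex and Stard10 a lipid transfer protein.

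Phf19 promoter, chr2:34913927-34914226, minus strand: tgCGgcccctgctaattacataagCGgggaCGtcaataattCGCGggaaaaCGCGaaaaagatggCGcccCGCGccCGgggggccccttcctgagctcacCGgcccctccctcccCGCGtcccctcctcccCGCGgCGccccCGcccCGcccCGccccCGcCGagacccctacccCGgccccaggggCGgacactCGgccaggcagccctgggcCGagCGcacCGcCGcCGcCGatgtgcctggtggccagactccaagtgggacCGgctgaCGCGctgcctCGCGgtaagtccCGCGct

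Dmrtc2 promoter, chr7:24869807-24870106, plus strand: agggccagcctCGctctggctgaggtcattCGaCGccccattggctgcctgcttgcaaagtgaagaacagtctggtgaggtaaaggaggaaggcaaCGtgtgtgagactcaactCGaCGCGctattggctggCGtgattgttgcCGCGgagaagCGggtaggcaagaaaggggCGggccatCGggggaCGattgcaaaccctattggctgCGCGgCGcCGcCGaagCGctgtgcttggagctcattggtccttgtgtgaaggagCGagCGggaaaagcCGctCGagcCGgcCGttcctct

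Jade1 promoter, chr3:41555484-41555783, plus strand: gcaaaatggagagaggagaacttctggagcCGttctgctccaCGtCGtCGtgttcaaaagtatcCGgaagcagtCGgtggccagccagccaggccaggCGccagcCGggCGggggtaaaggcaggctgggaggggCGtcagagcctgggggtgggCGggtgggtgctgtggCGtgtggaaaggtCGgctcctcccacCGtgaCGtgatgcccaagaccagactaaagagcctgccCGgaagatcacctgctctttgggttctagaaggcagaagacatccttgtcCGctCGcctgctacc

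Stard10 promoter, chr7:101316836-101317135, plus strand: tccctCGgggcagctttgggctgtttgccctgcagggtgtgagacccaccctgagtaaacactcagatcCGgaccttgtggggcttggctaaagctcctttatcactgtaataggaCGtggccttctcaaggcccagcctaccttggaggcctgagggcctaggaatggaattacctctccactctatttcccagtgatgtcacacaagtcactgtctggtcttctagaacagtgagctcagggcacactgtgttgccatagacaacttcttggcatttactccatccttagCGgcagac

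Cutal promoter, chr2:34874146-34874445, plus strand: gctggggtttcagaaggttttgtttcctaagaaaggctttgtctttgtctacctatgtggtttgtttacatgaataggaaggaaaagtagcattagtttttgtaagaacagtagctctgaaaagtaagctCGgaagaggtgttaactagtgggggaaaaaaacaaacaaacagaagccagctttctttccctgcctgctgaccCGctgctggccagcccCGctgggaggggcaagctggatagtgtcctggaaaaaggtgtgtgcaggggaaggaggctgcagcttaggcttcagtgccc

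The Phf19 and Dmrtc2 promoters held 38 and 26 CG dinucleotides, with observed over expected CpG ratios of 0.952 and 0.954, and the Jade1 promoter held 18 with a ratio of 0.625. Stard10 and Cutal stood at the other end with 4 and 3 CG and ratios of 0.188 and 0.182. In PRC1cKO P7 oocytes H3K27me3 covered all 300 bases of the Cutal promoter and 0 bases of the other 4. In PRC1ctrl P7 oocytes it covered all 300 bases of each of the 5, as did H2AK119ub in WT oocytes at P6.

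Late regions were smaller than early ones, which is a description only because the rule used these lists. Their median width was 7.02 kb (quartiles 5.75 and 9.65 kb, widest 54.2 kb), and that of the early regions was 10.5 kb (widest 261.3 kb). Together they covered 56.6 Mb, 9.46% of the autosomal length of the WT P7 list, while the early regions covered 454.6 Mb. Of the late regions, 1533 were at least 10 kb wide and 177 at least 20 kb. The median summed signal was 36967 in late and 68671 in early regions, and per base 5.08 and 6.46, in the authors' own units. The 3 regions just above the width limit measured 5000, 5000 and 5001 bp with total signals of 27441, 19158 and 27136. The 3 just below it measured 4999 bp each, with 20039, 22009 and 15953.

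Late regions lay at a median of 13.5 kb from the nearest WT P6 region (quartiles 5.57 and 32.8 kb) and 10.9 kb from the nearest region of any earlier WT list. Only 293 (4.39%) came within 1 kb of an earlier region, and 778 (11.7%) lay more than 50 kb from all of them. Of the late regions, 3965 (59.4%) stood in 1404 runs with gaps of at most 50 kb, and 139 runs held 5 or more. Runs were not counted for early regions, so this share has no background. Every autosome had late regions. They made up between 13.9% of the regions on chromosome 5 and 22.1% on chromosome 18.

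The state of the late regions in PRC1cKO and PRC1ctrl growing oocytes was compared over all 6673. The list of PRC1cKO P7 overlapped 2318 late regions (34.7%, interval 33.6 to 35.9%) and 24717 early ones (87.4%). Over all 34954 regions, 77.3% were called in PRC1cKO. The list of PRC1ctrl P7 overlapped 5308 late regions (79.5%, interval 78.6 to 80.5%) and 26037 early ones (92.1%), against 89.7% called over all regions. By length, PRC1cKO H3K27me3 covered 14.7% and PRC1ctrl H3K27me3 53.2% of the late regions. The early regions were covered over 62.9% of their length in PRC1cKO and 74.8% in PRC1ctrl. In 7 kb tiles of the autosomes that held no H3K27me3 in any WT list, 4.28% were overlapped in PRC1cKO and 3.64% in PRC1ctrl. The late regions in PRC1cKO therefore lay between the unmarked genome and the early regions. The 2 PRC1 lists differed in reach: on the autosomes the PRC1cKO list covered 440.7 Mb and the PRC1ctrl list 477.6 Mb, and their lowest total signals were 5094 and 7218. With every H3K27me3 list, WT lists included, trimmed to its strongest 428.6 Mb, there were 3668 late regions. Of these 47.4% were marked in PRC1cKO and 89.6% in PRC1ctrl, and of the early regions 92.6% and 96.3%.

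Taking both lists together, 3228 late regions (48.4%, interval 47.2 to 49.6%) were marked in PRC1ctrl and unmarked in PRC1cKO, against 16.8% of all regions and 9.36% of early ones. Both lists held 2080 (31.2%), PRC1cKO alone 238 (3.57%) and neither 1127 (16.9%). Over all regions these shares were 72.9%, 4.48% and 5.84%. Of the late regions marked in PRC1ctrl, 39.2% (interval 37.9 to 40.5%) were marked in PRC1cKO, and of the early ones 89.8% (interval 89.5 to 90.2%). The regions marked in both had a median width of 8.16 kb and those marked in PRC1ctrl only 7.17 kb, while those in neither had 5.84 kb and the lowest signal per base, 4.05.

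**Figure D1:**
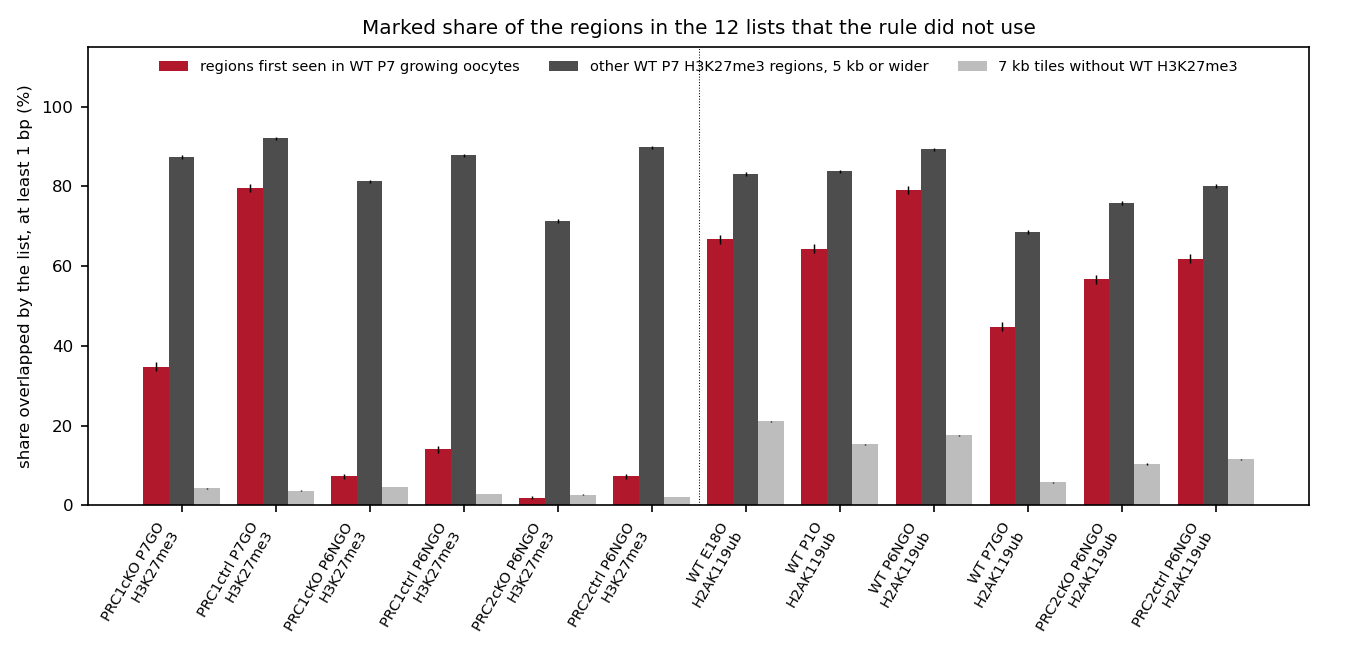
Bars show the percentage of regions overlapped over at least 1 bp by each of the 12 lists that did not choose them, for late regions (red), early regions (dark grey) and 7 kb tiles without WT H3K27me3 (light grey), with exact 95% intervals. Late regions stand at 34.7% in PRC1cKO P7 and 79.5% in PRC1ctrl P7, and early regions at 87.4% and 92.1%.

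Width and signal differed between late and early regions, so the same share was taken at matched size. Among regions of 5 to 7 kb that were marked in PRC1ctrl, 33.3% of late and 82.1% of early ones were marked in PRC1cKO. The shares were 40.6% of late and 86.9% of early regions at 7 to 10 kb, 43.7% and 90.6% at 10 to 15 kb, and 53.6% and 95.8% at 15 kb or more. Among the 25% of regions with the lowest signal per base they were 31.0% of late and 76.3% of early regions, and among the 25% with the highest 53.0% and 96.0%. In every width and signal class late regions were marked less often than early regions of the same class. An overlap of 1 bp is met more easily by a wide region, and by length PRC1cKO covered 14.5%, 15.6%, 14.3% and 14.2% of the late regions in the 4 width classes, with no rise by width. At 15 kb or more, 98.3% of late regions and 99.7% of early regions were marked in PRC1ctrl.

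The share also differed with the earlier history of the region. Of the regions marked in PRC1ctrl P7, PRC1cKO P7 marked 39.2% of the late ones. Of the early ones it marked 51.5% where WT oocytes had carried H3K27me3 at E18.5 only, 60.6% at P1 only, 76.5% at P6 only and 94.3% at all 3 stages. Over all regions of these 4 groups the median width was 6982, 6478, 9286 and 11511 bp. The median signal per base was 4.95, 4.74, 6.17 and 6.70. Late regions had 7022 bp and 5.08. The part of width and signal in these shares was not tested. Within the late regions, the share was highest next to earlier domains. It was 47.5% (interval 44.9 to 50.1%) within 5 kb of an earlier WT region, 40.1% at 5 to 20 kb, 31.8% at 20 to 50 kb and 28.9% (interval 25.3 to 32.7%) at 50 kb or more. The share marked in PRC1ctrl was 77.8%, 81.2%, 79.6% and 77.9% over the same steps, so it showed no such order.

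Late regions inside genes were the least often marked in PRC1cKO. A late region was called at a gene end when it reached within 1 kb of either end of a protein-coding gene, inside a gene when it touched the gene but no end, and otherwise outside genes. Of the late regions, 767 (11.5%) were at a gene end, against 24.4% of early regions, 21.9% of all regions and 11.7% of all 7 kb tiles. Inside genes lay 2146 (32.2%) of the late and 22.0% of the early regions, against 23.9% of all regions and 34.4% of all tiles. Outside genes lay 3760 (56.3%) of the late and 53.7% of the early regions, against 54.2% of all regions and 53.8% of all tiles. Of those marked in PRC1ctrl, PRC1cKO marked 24.9% (interval 22.9 to 26.9%) of the late regions inside genes, 40.5% at gene ends and 47.6% (interval 45.8 to 49.4%) outside genes. The early regions gave 79.9%, 93.9% and 91.9%. Of the late regions in PRC1ctrl only, 41.1% lay inside a gene, against 21.1% of those in both lists. The median width was 7.24 kb inside genes, 8.17 kb at gene ends and 6.77 kb outside, and its part in these shares was not tested.

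**Figure D2:**
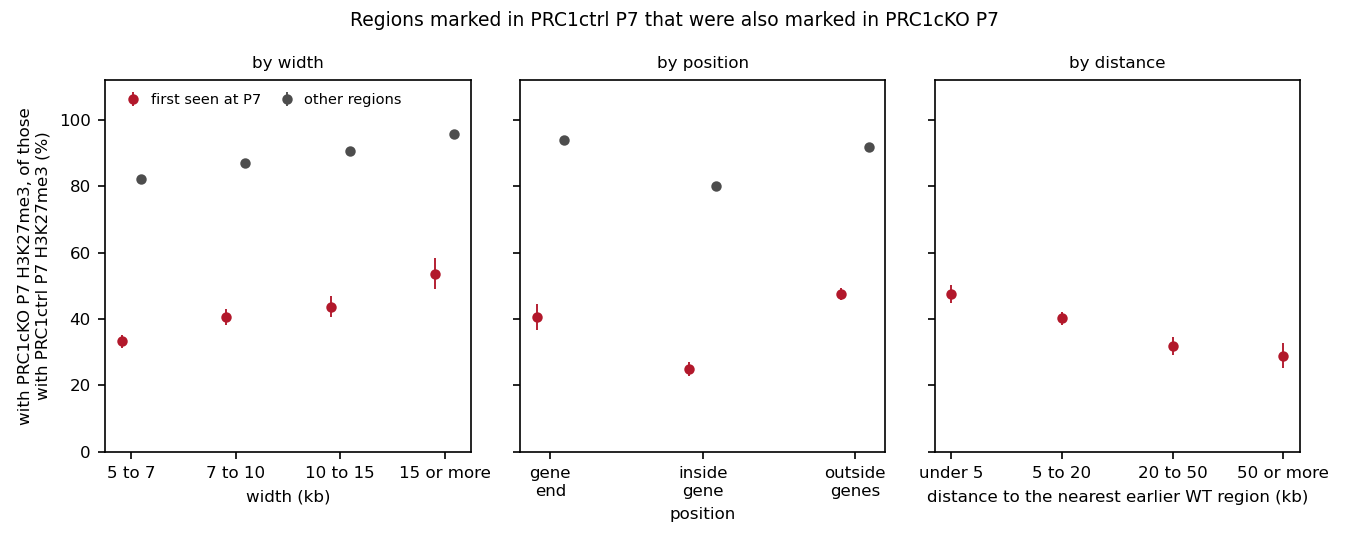
Each point is the percentage of regions marked in PRC1ctrl P7 that were also marked in PRC1cKO P7, with its exact 95% interval, for late (red) and early (grey) regions by width in kb, by position relative to protein-coding genes, and by distance in kb to the nearest earlier WT region (late regions only). Late regions lie below early ones in every class, and run from 47.5% within 5 kb of an earlier region down to 28.9% at 50 kb or more.

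At P6, before growth, the control genotypes gave a check of how new the late regions were. PRC1ctrl P6 oocytes carried H3K27me3 in 936 late regions (14.0%, interval 13.2 to 14.9%), against 73.7% of all regions, and PRC2ctrl P6 oocytes in 484 (7.25%), against 74.1% of all regions. The tiles without WT H3K27me3 gave 2.82% in PRC1ctrl and 2.11% in PRC2ctrl. Either control marked 1194 late regions (17.9%) and both marked 226 (3.39%). The other 5479 (82.1%) were unmarked in both, and 4273 (64.0% of the late regions) were unmarked in both at P6 and marked in PRC1ctrl at P7. These shares follow in part from the rule, which removed every region that the WT P6 list marked.

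The knockouts at P6 held fewer of them. PRC1cKO P6 marked 483 late regions (7.24%), against 67.1% of all regions, and PRC2cKO P6 marked 130 (1.95%), against 58.0%, which was below the 2.66% of unmarked tiles. Of the 936 late regions that PRC1ctrl had marked at P6, PRC1cKO marked 246 (26.3%, interval 23.5 to 29.2%), and of the early ones 88.4%. Of the 484 that PRC2ctrl had marked, PRC2cKO marked 58 (12.0%, interval 9.23 to 15.2%), and of the early ones 78.1%. Of the 936 regions, 824 (88.0%) were still marked in PRC1ctrl at P7.

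New regions were also counted within each genotype, as P7 regions of at least 5000 bp on autosomes with no overlap in the P6 list of the same genotype. PRC1cKO had 3039 of 24439 (12.4%), covering 23.4 Mb, PRC1ctrl had 5229 of 26432 (19.8%), covering 44.9 Mb, and WT had 7869 of 34954 (22.5%), covering 66.0 Mb. Of the new PRC1cKO regions 402 (13.2%) lay on a late region, and of the new PRC1ctrl regions 2104 (40.2%). Of the new PRC1cKO regions, 64.9% overlapped H3K27me3 that WT oocytes already had at P6, and of the new PRC1ctrl regions 32.0%. Most regions of at least 5000 bp that were new in PRC1cKO therefore overlapped ones that WT had already marked at P6. The count leaves out narrower regions, and the median width was 3620 bp in the PRC1cKO P7 list and 4308 bp in the PRC1ctrl P7 list. Of the 2080 late regions marked in both P7 lists, PRC1cKO had marked 254 (12.2%) at P6. Of the 238 marked in PRC1cKO P7 alone, it had marked 49 (20.6%).

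In WT oocytes H2AK119ub overlapped 4455 late regions (66.8%) at E18.5, 4295 (64.4%) at P1, 5280 (79.1%) at P6 and 2992 (44.8%) at P7. Over all regions the shares were 80.0% at E18.5, 80.1% at P1, 87.4% at P6 and 64.0% at P7. Early regions gave 83.2%, 83.8%, 89.3% and 68.6%, and tiles without WT H3K27me3 gave 21.1%, 15.3%, 17.5% and 5.79%. By length, late regions were covered over 50.5%, 46.7%, 66.8% and 18.2% at the 4 stages. The lists themselves covered 668.9, 605.3, 728.3 and 244.2 Mb, so differences between stages cannot be told apart from the length of the lists. With all lists trimmed to equal covered length, 72.2% of late and 86.1% of early regions had H2AK119ub at P7, and 14.9% of late and 34.1% of early regions at P6, so the order of the 2 stages turned round. Of the late regions, 3391 (50.8%) carried H2AK119ub at E18.5, P1 and P6, and 679 (10.2%) carried it in none of the 4 lists, against 75.4% and 4.60% of the early regions. It was present at P6 and absent at P7 in 2560 late regions (38.4%), against 23.6% of early regions. It was present at P7 and absent at P6 in 272 (4.08%), against 2.80% of early regions. These counts come from the untrimmed lists.

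PRC2cKO P6 oocytes kept H2AK119ub on many of these places. The mark lay in 3783 late regions (56.7%, against 72.2% of all regions) in PRC2cKO and in 4128 (61.9%, against 76.7% of all regions) in PRC2ctrl. Of the 4128, PRC2cKO marked 3086 (74.8%), and of the early ones 88.3%. By length the late regions were covered over 32.2% in PRC2cKO and 40.9% in PRC2ctrl.

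Earlier H2AK119ub ran with H3K27me3 in PRC1ctrl, and hardly with the share found in PRC1cKO. Late regions with WT P6 H2AK119ub were marked in PRC1cKO P7 in 35.5% and in PRC1ctrl P7 in 83.8% of cases. Those without it were marked in 31.9% and 63.5%. Early regions with it were marked in 88.5% in PRC1cKO and 94.8% in PRC1ctrl, and early regions without it in 78.3% and 69.3%. Of the late regions marked in PRC1ctrl, PRC1cKO marked 39.4% (interval 37.9 to 40.8%) with and 38.3% (interval 35.1 to 41.6%) without WT P6 H2AK119ub, and these intervals overlap. For early regions the shares were 90.3% and 84.9%. Width was not matched here, and a wide region meets both overlaps more easily. At 10000 bp or more, 94.6% of late regions had WT P6 H2AK119ub and 95.6% were marked in PRC1ctrl P7. The part of width in these shares was not tested.

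The 10 widest late regions had little or no PRC1cKO H3K27me3, which does not describe wide late regions in general. Of the 467 late regions of 15 kb or more, 248 (53.1%) were marked in PRC1cKO and 459 (98.3%) in PRC1ctrl. By length PRC1cKO covered 14.2% of these 467 and PRC1ctrl 66.2%. The 10 widest were all marked in PRC1ctrl P7, over 23.6 to 38.6 kb, and 7 of them had no base of PRC1cKO P7 H3K27me3, with at most 5.44 kb in the other 3. The widest of all, at chr6:31064912-31119116, measured 54.2 kb and lay 105.9 kb from Klf14, an imprinted Krüppel-like transcription factor gene that was the nearest protein-coding gene. It had 0 kb of H3K27me3 in PRC1cKO and 34.7 kb in PRC1ctrl growing oocytes, and 29.5 kb of WT P6 H2AK119ub. The next, of 46.0 kb, lay inside Iqsec1, which encodes an exchange factor for ARF GTPases, 147.0 kb from any earlier WT region, and held 0 kb in PRC1cKO and 29.1 kb in PRC1ctrl. The region inside Xylt1, whose enzyme starts the sugar chains of proteoglycans, measured 44.9 kb and had 0 kb in PRC1cKO and 34.5 kb in PRC1ctrl.

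Srgap3, a GTPase-activating protein of the Slit-Robo pathway, held a late region of 45.4 kb at chr6:112874154-112919509. It carried 2.51 kb of H3K27me3 in PRC1cKO and 38.6 kb in PRC1ctrl, and WT P6 H2AK119ub covered all 45.4 kb of it. The region inside Tns3, which encodes a tensin of focal adhesions, had the highest total signal of all late regions, 310119 over 37.2 kb. It had 0 kb in PRC1cKO P7, and PRC1ctrl covered all 37.2 kb at P7 and 17.7 kb at P6, so this region was not new in that control. The region that spans Cutal and reaches into Phf19, at chr2:34872464-34905990, measured 33.5 kb and kept 10.1 kb in PRC1cKO, beside 29.2 kb in PRC1ctrl. The region over Lypd4 and Dmrtc2, at chr7:24843760-24883203, measured 39.4 kb and held 5.44 kb in PRC1cKO and 30.2 kb in PRC1ctrl. Late regions in PRC1ctrl only, of 33.8 to 35.8 kb, also lay at Syk, a kinase of immune receptor signalling, Parva, an actin-binding partner of integrin-linked kinase, and Arap1, a regulator of ARF GTPases.

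**Figure D3:**
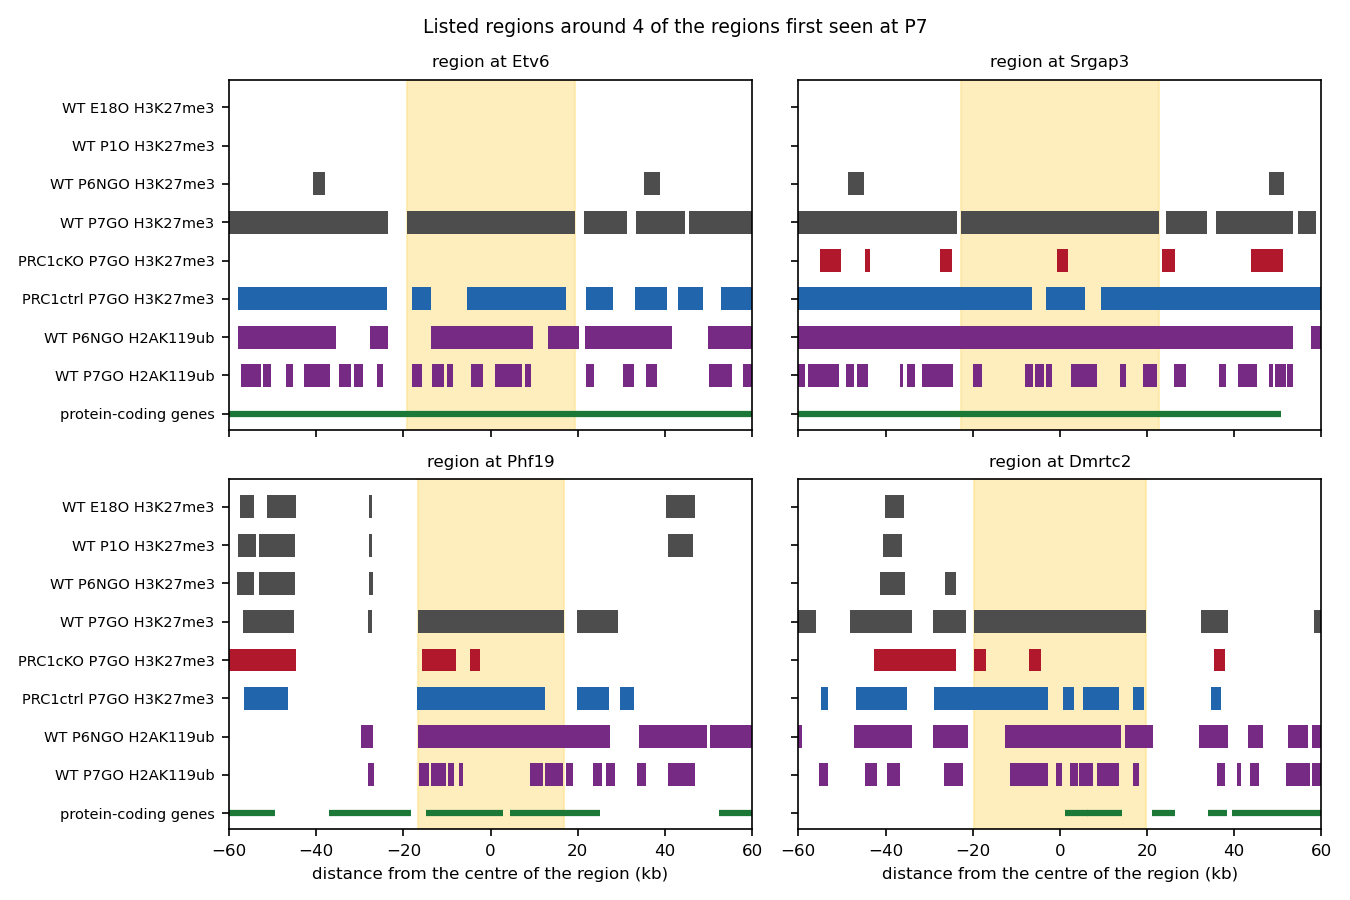
Each panel shows the listed regions of 8 lists and the protein-coding genes (green) within 60 kb of the centre of a late region, which is shaded, at Etv6, Srgap3, Phf19 and Dmrtc2, with distance from the centre in kb on the x axis. The WT E18.5, P1 and P6 H3K27me3 rows are empty inside the shading, PRC1cKO P7 (red) covers 0, 2.51, 10.1 and 5.44 kb of the 4 late regions, and PRC1ctrl P7 (blue) covers 26.9, 38.6, 29.2 and 30.2 kb.

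Long genes held series of late regions. Rbms3, encoding an RNA-binding protein, had 19 in its body, of which PRC1cKO marked 8 and PRC1ctrl 16. Elmo1, an activator of the GTPase Rac, had 14, of which PRC1cKO marked 3 and PRC1ctrl 13, and it was the site of the longest run, at chr13:20044051-20460883. Plcb4, a phospholipase C, had 10, of which PRC1cKO marked 0 and PRC1ctrl all 10. Rarb, a retinoic acid receptor, lay at the other end with 11, of which PRC1cKO marked 7 and PRC1ctrl 9. Runs of 10 lay around Wnt5a, a secreted Wnt ligand, where PRC1cKO marked 8 and PRC1ctrl 9, and nearest to Sox2, a pluripotency and neural factor, where PRC1cKO marked 7 and PRC1ctrl 9. The other runs of 10 held fewer in PRC1cKO, with 2 in PRC1cKO and 10 in PRC1ctrl at Pcsk6, a proprotein convertase, and 1 and 5 at Iqsec1. The share of protein-coding genes with a late region in the body ran with gene length, from 2.41% of genes under 10 kb to 38.1% of genes of 200 kb or more.

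Few genes had a late region at an end. Of 20661 autosomal protein-coding genes, 865 (4.19%) had one within 1 kb of an end. Within 1 kb of either end, PRC1cKO P7 H3K27me3 was found in 310 of these genes and PRC1ctrl in 611. These counts include H3K27me3 that did not lie on the late region. The same was not counted over other genes, here or for the 25 genes that follow, so these counts have no background. For the 25 genes with the longest late coverage within 5 kb of their ends, all 25 had PRC1ctrl P7 H3K27me3 there, between 2.18 and 20.0 kb, and 15 had none in PRC1cKO. Msra, a methionine sulfoxide reductase, and Stard10 were covered over the whole 20.0 kb of their windows by late regions. At Msra the coverage was 0 kb in PRC1cKO and 20.0 kb in PRC1ctrl, and at Stard10 it was 0 kb and 19.7 kb. Other genes among the 25 with 0 kb in PRC1cKO were Slc12a4, a potassium chloride cotransporter (10.1 kb in PRC1ctrl at P7), Mpped2, a metallophosphoesterase (16.6 kb), Pecam1, an endothelial adhesion protein (14.6 kb), and Psg22, a pregnancy-specific glycoprotein (13.6 kb). Of the 25 genes, 7 had H3K27me3 in these windows in PRC1ctrl already at P6, among them Slc12a4, with 5.03 kb in PRC1cKO and 12.7 kb in PRC1ctrl at P6. Gcnt2, which branches blood group I sugar chains, had 7.69 kb in PRC1cKO and 20.0 kb in PRC1ctrl, and C1qtnf9, a secreted relative of complement C1q, had 9.99 kb and 12.2 kb.

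A set of genes has its maternal copy silenced in embryos through inherited H3K27me3 rather than DNA methylation. Of 32 such genes on the autosomes, 13 (40.6%) had a late region in the body, against 8.19% of all genes. These genes are long, with a median of 71.2 kb, and the share of all genes in the same length classes would give 5.36 of the 32. Only E2f3, Etv6 and Jade1 had one within 1 kb of an end. The 13 genes held 37 late regions of 395.0 kb, of which PRC1cKO P7 marked 6 (16.2%) and PRC1ctrl P7 marked 34 (91.9%). Of all late regions inside genes, PRC1cKO P7 marked 22.1% and PRC1ctrl P7 82.3%. By length PRC1cKO covered 23.2 kb (5.88%) and PRC1ctrl 264.2 kb (66.9%), where all late regions, inside genes or not, gave 14.7% and 53.2%. WT P6 H2AK119ub covered 76.1% of their length. At P6, PRC1cKO had H3K27me3 in 0 of the 37, against 7.24% of all late regions, and PRC1ctrl in 4, over at most 3.09 kb, against 14.0% of all late regions. Early regions of the same genes are not counted here. The list was chosen with earlier results of these data known, so this is a description of its genes.

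Etv6, an ETS-family repressor of transcription on chromosome 6, had 5 late regions of 87.6 kb, with 0 kb of H3K27me3 in PRC1cKO and 58.6 kb in PRC1ctrl. Its widest, at chr6:134126877-134165432, measured 38.6 kb, and H2AK119ub had covered 29.5 kb of it in WT P6 oocytes. In Smoc1, a secreted calcium-binding matrix protein, 5 late regions of 52.9 kb held 0 kb in PRC1cKO and 41.5 kb in PRC1ctrl, and all 52.9 kb had carried H2AK119ub at P6. Sh3gl3, an endophilin of vesicle formation, had 4 of 45.4 kb with 0 kb in PRC1cKO and 34.3 kb in PRC1ctrl. Slc38a1, an amino acid transporter, had 2 of 35.0 kb with 0 kb in PRC1cKO and 30.8 kb in PRC1ctrl, although only 7.80 kb had carried H2AK119ub at P6. In Sfmbt2, a Polycomb-group protein gene with a role in placenta, 5 late regions of 36.9 kb held 0 kb in PRC1cKO and 15.5 kb in PRC1ctrl.

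PRC1cKO H3K27me3 was found in 6 of the 13 genes. E2f3, a cell cycle transcription factor, had 3.00 kb in PRC1cKO and 23.8 kb in PRC1ctrl, Rbms1, an RNA-binding protein, 3.95 kb and 21.1 kb, and Jade1 5.54 kb and 10.9 kb. Rftn2, a lipid raft protein, had 1.83 kb in PRC1cKO and 9.73 kb in PRC1ctrl. In Slc38a4, an amino acid transporter, the values were 5.46 kb in PRC1cKO and 5.87 kb in PRC1ctrl, and in Myoz2, a protein of the sarcomere, 3.44 kb and 3.27 kb, so these last genes were alike in both groups. Gab1, a signalling adaptor, and Mbnl2, a splicing regulator, each had 1 late region with 0 kb in PRC1cKO.

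**Figure D4:**
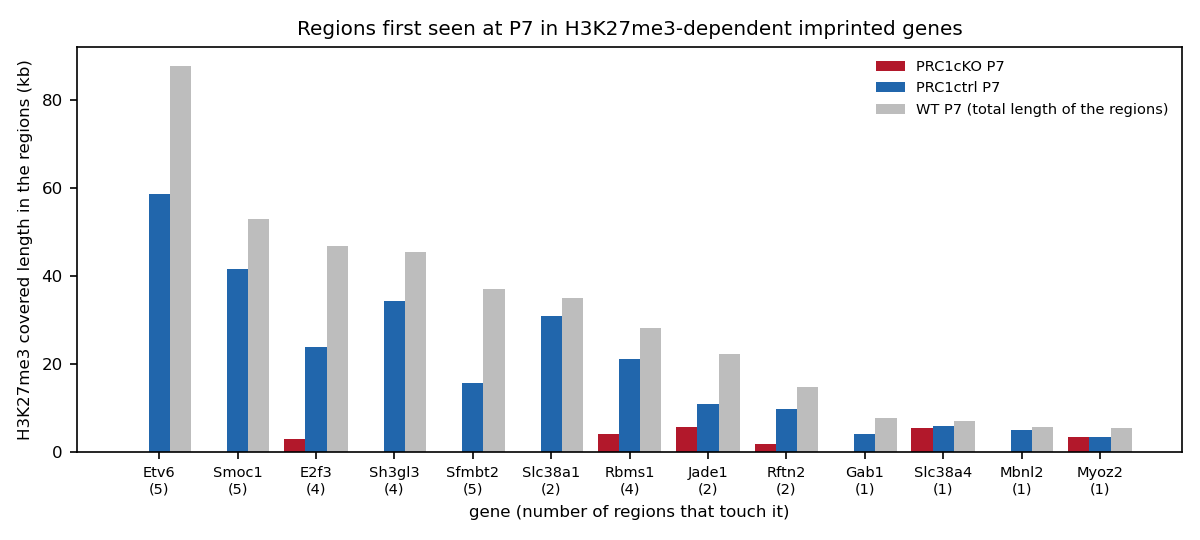
Bars give the kb covered by H3K27me3 inside the late regions of 13 genes imprinted through H3K27me3, for PRC1cKO P7 (red), PRC1ctrl P7 (blue) and WT P7 (grey, the full length of the regions), with the number of late regions under each name. PRC1cKO bars are at 0 for Etv6, Smoc1, Sh3gl3, Sfmbt2, Slc38a1, Gab1 and Mbnl2, and come near the PRC1ctrl bars at Slc38a4 and Myoz2 only.

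The other gene lists gave small counts, set against 4.19% of all genes with a late region within 1 kb of an end. Germline identity genes had 3 of 32 (Dppa4, Nanog and Sall4), which went different ways. Nanog, a pluripotency factor, had 0 kb in PRC1cKO and 2.07 kb in PRC1ctrl over its late region of 5.37 kb, Sall4, a zinc finger factor of germ and stem cells, had 3.84 kb in PRC1cKO and 0 kb in PRC1ctrl over 5.90 kb, and Dppa4 had 0 kb in both. Over the 5 late regions in the bodies of germline identity genes, H3K27me3 covered 11.1 kb in PRC1cKO and 9.50 kb in PRC1ctrl. Meiotic prophase genes had 2 of 42: Rec8, the meiotic cohesin, with 0 kb in PRC1cKO and 6.02 kb in PRC1ctrl over 8.06 kb, and Spo11, the nuclease that starts recombination, with 2.57 kb and 19.5 kb over 19.6 kb. Polycomb genes had 2 of 38, Phf19 and Pcgf2, a PRC1 subunit whose late region of 14.1 kb held 0 kb in PRC1cKO and 10.5 kb in PRC1ctrl. Oocyte growth and maternal effect genes had 0 of 39, developmental transcription factors 0 of 92, developmental signalling genes 0 of 57 and sperm genes 0 of 36. Primordial follicle genes had 1 of 28 (Sohlh2), canonical imprinted genes 2 of 35 (Ddc and Impact), and neuronal channels and receptors 1 of 56 (Grin2a).

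Counted over gene bodies, 12 of 56 neuronal genes (21.4%) had late regions, where their length classes would give 13.3. They include Grin2a, an NMDA receptor subunit with 6 late regions, and Kcnq3, a potassium channel with 7. The 29 late regions of these 12 genes were marked in PRC1cKO in 7 cases and in PRC1ctrl in 25. Dnmt3a, the de novo DNA methyltransferase of the growing oocyte, held 3 late regions of 24.5 kb that H2AK119ub covered in full at P6, with 0 kb in PRC1cKO and 5.76 kb in PRC1ctrl. Meis2, a homeodomain factor, had 5 late regions of 37.7 kb and kept more, with 13.9 kb in PRC1cKO and 27.0 kb in PRC1ctrl. Of markers of other ovarian cells, 0 of 29 granulosa and stroma genes and 2 of 23 blood and endothelial genes (8.70%), Itgam and Pecam1, touched a late region, against 8.19% of all genes.

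Promoters inside late regions ranged from CpG-poor to CpG-rich. Of 20084 promoters of 16456 autosomal genes in the RefSeq table, 501 (440 genes) overlapped a late region. Their median observed over expected CpG ratio was 0.478, against 0.442 for 6045 promoters in early regions, 0.682 for 12640 promoters outside every WT P7 region and 0.586 for all. The median lay between 2 peaks: 15.8% of the promoters in late regions had a ratio from 0.1 to 0.2 and 12.2% from 0.7 to 0.8, but only 6.39% from 0.4 to 0.5. The dinucleotide CG, which reads the same on both strands, was present in 98.2% of them and in 95.6% of all promoters. A ratio of at least 0.6 was reached by 41.3% (interval 37.0 to 45.8%) of the promoters in late regions and by 36.1% in early regions, against 48.9% of all. At the promoters in late regions, PRC1cKO P7 H3K27me3 was found in 14.4% and PRC1ctrl P7 in 57.1%. At promoters in early regions the shares were 75.8% in PRC1cKO and 83.6% in PRC1ctrl, and at all promoters 28.5% and 30.6%. Those marked in both groups (57 promoters) had a median ratio of 0.243, and 21.1% (interval 11.4 to 33.9%) reached 0.6. Those marked in PRC1ctrl only (229) had a median of 0.464, and 38.4% (interval 32.1 to 45.1%) reached it. That median of 0.464 was close to the 0.478 of all promoters in late regions. The printed promoters of Phf19, Dmrtc2 and Jade1, marked in PRC1ctrl only, lay above it, at 0.952, 0.954 and 0.625. Stard10, also marked in PRC1ctrl only, had a ratio of 0.188, and Cutal, marked in both, 0.182. The ratio of promoters in late regions that PRC1ctrl did not mark is not given here.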

How the data were processed

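H3K27me3 and H2AK119ub were profiled by CUT&Tag in 32 samples in 16 groups of 2. Cells of the Drosophila line S2 served as a spike-in, per the labels' protocols, and their use in scaling is not given in the sources used here, nor are the peak caller, its threshold and how samples of a group were joined. From the submitters' processing notes, which assign no roles, come the tools Bowtie2, SAMtools, deepTools, Picard (version 3.0.0) and Trim Galore (0.6.10) and the builds mm10, GRCm38 and dm6. The authors deposited 1 region list per group, with a total signal per region, judged from the values, and these signals are the authors' own, used to describe and rank regions within a list. Read depth is unknown from these files, so no sampling limit per library could be set.

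Regions were compared by overlap of at least 1 bp and by covered length, in Python 3.11.15 with numpy 2.4.6, pandas 2.3.3 and scipy 1.17.1. The overlap and interval functions were tested on simulated data. Tiles of 7 kb (343378 on the 19 autosomes, of which 158258 had no WT H3K27me3) gave the level in unmarked sequence. Genes came from RefSeq for GRCm38.p6. The table used gives no strand, so both gene ends were used. Strand was known for the promoter table, and promoters of chromosome 18 were not used here. No genome was used, so the planned GC content of regions was left out. Of 552 gene names in 13 lists, 540 matched a protein-coding gene. The expected number of genes of a list with a late region in the body was summed from the share of all genes in 6 classes of length.

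The late regions, gene lists and comparisons were chosen with earlier results of these data known. Named regions were the 10 widest, the 10 of highest total signal and the 10 widest in PRC1ctrl and not PRC1cKO P7, which came to 17 different regions. Named genes were the 25 with the longest late coverage within 5 kb of an end, the list genes with a late region within 1 kb of an end, and genes at named regions. Genes named for late regions in their bodies or for runs were chosen after their values were seen. Alternatives were a width of 10000 bp, a distance from earlier regions, the stronger part of the WT P7 list, lists trimmed to equal covered length, coverage of 50% of the region and a window of 5 kb at gene ends.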

Additional observations from a re-analysis of the deposited data

How the results depend on the processing

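At every setting tried, PRC1cKO P7 marked a smaller share of late than of early regions, and PRC1ctrl P7 a larger share of late regions than PRC1cKO. With a width of 10000 bp there were 1533 late regions, of which 45.7% were marked in PRC1cKO P7, 95.6% in PRC1ctrl P7 and 50.9% in PRC1ctrl only, with 20.1% in PRC1ctrl P6, 10.2% in PRC2ctrl P6, 70.1% in WT P7 H2AK119ub, 94.6% in WT P6 H2AK119ub and 16.6% at gene ends. At a distance of 5000 bp or more from every earlier region (4810 regions), PRC1cKO P7 marked 31.6%, PRC1ctrl only 51.3%, PRC1ctrl P6 12.5% and PRC2ctrl P6 5.59%, and the other 5 values stayed within their intervals or within 1.5 times. In the WT P7 list cut to its higher part by total signal (3966 late regions) the values, in the order of the first setting, were 42.1%, 92.5%, 52.1%, 17.5%, 8.72%, 57.9%, 89.7% and 14.1%. With lists trimmed to equal covered length (3668 late regions) they were 47.4%, 89.6%, 45.4%, 11.5%, 2.84%, 72.2%, 14.9% and 16.6%. Trimming cut the WT P6 H2AK119ub list from 728.3 to 244.2 Mb and also changed which regions were late. With 50% of a region required to be covered, PRC1cKO P7 marked 10.5%, PRC1ctrl P7 53.3%, PRC1ctrl only 45.9%, PRC1ctrl P6 6.05%, PRC2ctrl P6 2.38%, WT P7 H2AK119ub 9.46% and WT P6 H2AK119ub 69.9%. Early regions at 50% coverage gave 62.2% in PRC1cKO P7, 74.9% in PRC1ctrl P7 and 23.3% in PRC1ctrl only. With an overlap of 1 bp, 48.4% of late and 9.36% of early regions were in PRC1ctrl only. The contrast between late and early regions in this share was therefore smaller at 50% coverage. At the settings of width, distance, signal and trimming, between 6.09% and 11.3% of early regions were in PRC1ctrl only. A window of 5 kb put 18.9% of late regions at gene ends. The cause of these changes was not tested.

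No paired analysis was possible because each list stands for both samples of its group, and leaving out a replicate was not run for the same reason. A region is present or absent by a threshold that is not known, and signal below it was not measured here. The lowest total signal was 5094 in the PRC1cKO, 7218 in the PRC1ctrl and 14139 in the WT P7 list, and read depth is unknown.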

Other observations

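The rule left out the X chromosome and narrow regions. On X, 37 of 1365 regions of at least 5000 bp in the WT P7 list (2.71%) overlapped no earlier WT H3K27me3 region. Of these, 7 (18.9%) were marked in PRC1cKO P7 and 16 (43.2%) in PRC1ctrl P7. On the autosomes, 8819 regions narrower than 5000 bp overlapped no earlier region. PRC1cKO P7 marked 23.0% and PRC1ctrl P7 56.4% of them, and WT P6 H2AK119ub lay in 52.8%. Shares over all X regions or all narrow regions are not given here, so these values have no background.

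Among the late regions, the share marked in PRC1cKO P7 lay between 27.0% on chromosome 17 and 45.3% on chromosome 3, and the share marked in PRC1ctrl P7 between 74.3% and 84.0%.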
